A study of Homo sapiens with 16 samples.

Results

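The response to AT7519 was examined in LNCaP cells in which OGT had been silenced with the siRNA named siOGT2. The libraries were chosen by their labels: 2 replicates given AT7519 and 2 given DMSO, which makes 4 of the 16 samples of the series. All genes were considered, and 23830 of the 60252 in the count table had enough counts to be tested. LNCaP is an androgen-responsive line grown from a human prostate cancer metastasis. The 4 samples shared siOGT2 for 48 hours. Then 0.5 μM AT7519, an inhibitor of several cyclin-dependent kinases including CDK9, or the DMSO vehicle was present for the last 4 hours. The other samples held a second siRNA against OGT (siOGT1), a scrambled siRNA (Scr) or the OGT inhibitor OSMI2, each with AT7519 and with DMSO in 2 replicates. RNA of whole cultures was sequenced with a strand-specific kit. The series title concerns CDK9 inhibition and splicing, and gene counts do not measure splicing. The siRNA sequences were not used here. Nothing in the labels says that the replicates were separate cultures, so p-values measure only how far these samples differ among themselves, and that spread may be technical.

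CDK9 with a T-type cyclin forms P-TEFb, the kinase that releases RNA polymerase II from its pause near the promoter into productive elongation. In cells much of P-TEFb is held inactive by HEXIM proteins on the 7SK RNA, which MEPCE and LARP7 stabilise. OGT is the enzyme that attaches O-linked N-acetylglucosamine to nuclear and cytoplasmic proteins, polymerase II and transcription factors among them, and OGA removes it. Transcripts with short half-lives fall first when elongation is blocked.

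The samples fit their labels for the silenced gene. OGT (ENSG00000147162) stood at 29.3 and 33.8 CPM in siOGT2 cells with AT7519 and at 36.0 and 29.8 CPM in siOGT2 cells with DMSO, where CPM is the count per 1000000 counts of a library total scaled by its TMM factor. In Scr cells it stood at 255 and 314 CPM with AT7519 and at 274 and 263 CPM with DMSO, so that no siOGT2 sample came near a Scr sample. Against Scr, OGT with AT7519 was 9.04-fold lower (log2 -3.18, SE 0.14, adjusted p = 6.70e-10). Under DMSO it was 8.16-fold lower (-3.03, SE 0.14, adjusted p = 1.36e-09). AT7519 itself gave OGT a log2 fold change of -0.06 in siOGT2 cells (SE 0.13, adjusted p = 0.736). OGA was at 64.0 and 69.1 CPM with AT7519 and at 62.3 and 40.7 CPM with DMSO (0.37, SE 0.22, adjusted p = 0.201). It passed as a rise without siOGT2 DMSO replicate 1 (0.71, adjusted p = 0.0289). In Scr cells OGA was at 281 and 255 CPM with AT7519 and at 331 and 289 CPM with DMSO. Its siOGT2 level was thus 4.03-fold lower than in Scr cells with AT7519 (adjusted p = 3.49e-04) and 6.01-fold lower under DMSO (adjusted p = 1.79e-04). Unless another tool, setting or set of samples is named, these and all later values come from edgeR's quasi-likelihood test. It was fitted on the 16 samples and adjusted over the genes tested.

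Of 13 luminal prostate markers, whose summed level was 5860 to 6324 CPM with AT7519 and 5973 to 6165 CPM with DMSO, 4 were called higher and 3 lower, with 6 uncalled, and 5 were lower without siOGT2 DMSO replicate 1. The luminal shares, 30.8% higher and 23.1% lower, lay near the 22.2% and 22.8% over all tested genes. The basal and neuroendocrine markers with enough counts to be tested summed to a few CPM. The summed level with AT7519 against DMSO was 0.345 to 0.914 against 0.696 to 0.741 CPM for the 3 tested of 7 basal markers. For the 4 tested of 7 neuroendocrine markers it was 4.33 to 5.30 against 5.46 to 5.79 CPM. The 6 tested of 9 stromal and endothelial markers summed to 37.5 to 41.5 CPM with AT7519 and 35.8 to 36.7 CPM with DMSO. None of the 6 passed. Of 9 leukocyte markers 1, CD68, was tested. It was at 0.0157 and 0.0321 CPM with AT7519 and 0.425 and 0.494 CPM with DMSO, was called lower (-4.17) and overlaps other genes in the annotation. Total counts were 72461676 and 66662691 with AT7519 and 53782868 and 48354151 with DMSO, within a series range of 40216911 to 147019364. The 10 genes with most counts took 4.74% to 5.06% of counts with AT7519 and 3.76% to 3.78% with DMSO.

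After siOGT2, AT7519 was followed by rises and falls in similar numbers of genes. Of the 23830 tested, 5284 rose (22.2%) and 5445 fell (22.8%), together 45.0%, at an adjusted p under 0.05. Falls were larger: 2566 genes (10.8%) fell and 1493 (6.27%) rose by 2-fold or more. Among the 14576 protein-coding genes, 1556 fell and 172 rose by that much. Long non-coding genes had 670 such falls and 532 such rises, and pseudogenes 213 and 382. Both AT7519 samples lay above both DMSO samples for 33.5% of genes and below them for 36.8%. The balance of rises and falls moved with the scaling, and no spike-in is named in the labels. The median gene moved by 0.11 with upper-quartile scaling, which made 57.8% of the calls higher (6351 and 4633), and by -0.27 with library size only, which made 26.1% higher (2842 and 8067). Every fold is thus a change against the typical gene. In bulk samples fewer cells of a type and less RNA per cell cannot be told apart.

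**Figure D1:**
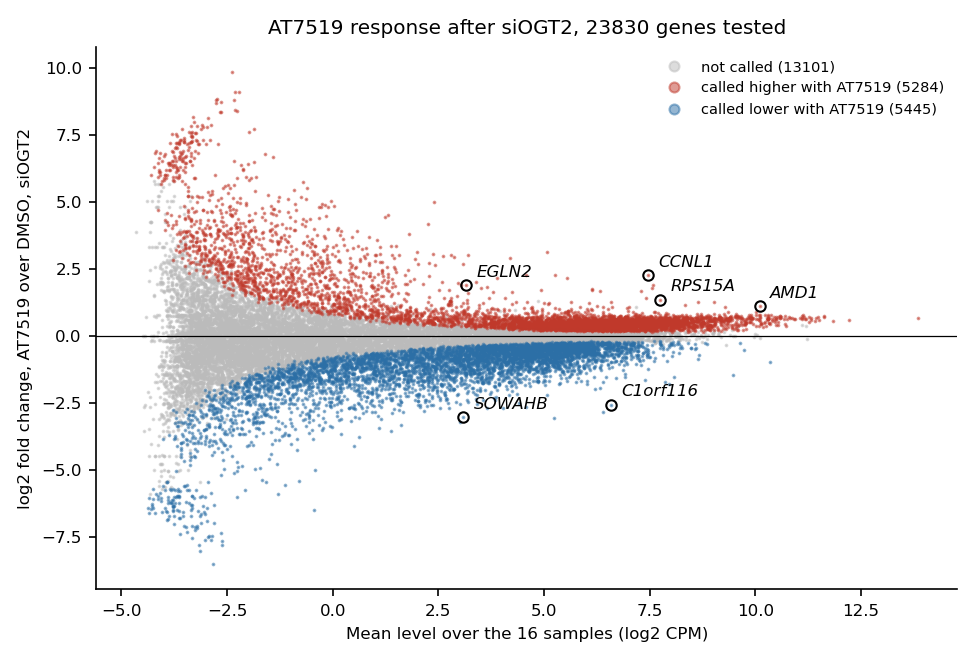
Each point is 1 of 23830 genes. The horizontal axis is the mean log2 CPM over the 16 samples and the vertical axis the log2 fold change of AT7519 over DMSO in siOGT2 cells, with 5284 called higher and 5445 called lower. Points at the far left with the most extreme values include genes at 0 in a group, whose fitted folds are no bounds. The circles mark 6 named genes, among them CCNL1 at 2.27 and C1orf116 at -2.55.

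The single gene with the largest rise among well-counted protein-coding genes that overlap no other tested gene was CCNL1. Overlap with genes that were not tested was not examined for this or any later gene, so reads shared with such genes are possible. CCNL1 (ENSG00000163660) encodes cyclin L1, a partner of CDK11 kinases in splicing. It stood at 379 and 444 CPM with AT7519, against 89.8 and 80.4 CPM with DMSO, a 4.84-fold rise (log2 fold change 2.27, SE 0.11, adjusted p = 1.33e-11). Both AT7519 values were far above both DMSO values. Next came EGLN2, an oxygen-sensing prolyl hydroxylase gene, with 16.1 and 16.3 CPM with AT7519 and 4.09 and 4.58 CPM with DMSO (1.90, SE 0.14, adjusted p = 2.57e-09). ZC3H12A, which encodes an endonuclease that degrades inflammatory mRNAs, had 118 and 168 CPM with AT7519 and 44.2 and 40.2 CPM with DMSO (1.76, SE 0.24, adjusted p = 8.88e-05). Groups did not overlap for either gene, and the AT7519 replicates of ZC3H12A differed more than its DMSO replicates.

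The other rises by the same rule were smaller. VCPKMT, a lysine methyltransferase gene, rose by 1.65 (SE 0.14) with 30.9 and 38.9 CPM with AT7519 and 12.04 and 10.2 CPM with DMSO. Among them were 3 ribosomal protein genes: RPL36A (1.42), RPS15A (1.37) and RPS10 (1.26). RPL36A had 18.8 and 23.4 CPM with AT7519 and 8.58 and 7.19 CPM with DMSO. RPS10 had 50.5 and 61.0 CPM with AT7519 and 21.6 and 24.8 CPM with DMSO. RPS15A stood at 311 and 347 CPM with AT7519, against 127 and 128 CPM with DMSO. HNRNPDL, which encodes an RNA-binding protein that acts in splicing, had 478 and 518 CPM with AT7519 and 233 and 204 CPM with DMSO (1.19, SE 0.09). ZNF256, a zinc finger gene, rose by 1.25 and E4F1, which encodes a regulator of p53, by 1.15. ID3, an inhibitor of helix-loop-helix factors, had 29.3 and 32.2 CPM with AT7519 and 9.90 and 13.1 CPM with DMSO (1.42, SE 0.50, adjusted p = 0.0441), and its call was lost when any 1 of the 4 libraries was left out (1.23 to 1.63, adjusted p 0.11 to 0.209). It was also lost with library size only (1.16, adjusted p = 0.0885), limma voom (1.44, adjusted p = 0.0508), no low-count filter (1.42, adjusted p = 0.0940) and a replicate block (1.42, adjusted p = 0.0650). AMD1, an enzyme gene of polyamine synthesis, had 1248 and 1979.5 CPM with AT7519 and 706.5 and 774.3 CPM with DMSO (1.12, adjusted p = 0.00961). Its call was lost without siOGT2 DMSO replicate 1 (1.06, adjusted p = 0.0707) or AT7519 replicate 2 (0.75, adjusted p = 0.0985).

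Among the falls SOWAHB (ENSG00000186212) came first, a gene of 1 exon whose protein carries ankyrin repeats. It stood at 3.72 and 3.08 CPM with AT7519, against 27.1 and 27.6 CPM with DMSO, and was 8.04-fold lower (log2 fold change -3.01, SE 0.19, adjusted p = 4.70e-10). IRF2BP2, which encodes a transcriptional corepressor, had 6.66 and 7.27 CPM with AT7519 and 44.9 and 45.1 CPM with DMSO (-2.69, SE 0.15, adjusted p = 1.27e-10). For both genes the 2 AT7519 samples lay far below both DMSO samples.

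Among the other large falls by the same rule were genes of varied roles. C1orf116, an androgen-regulated gene, had the highest mean level of the 12, with 38.8 and 41.9 CPM with AT7519 and 223 and 248 CPM with DMSO (-2.55, SE 0.10, adjusted p = 1.40e-12). GID4, which encodes the substrate receptor of the CTLH ubiquitin ligase, had 4.42 and 4.27 CPM with AT7519 and 25.0 and 24.4 CPM with DMSO (-2.51, SE 0.12). CITED2, a coactivator gene that binds CBP and p300, had 9.41 and 4.65 CPM with AT7519 and 37.4 and 36.5 CPM with DMSO (-2.39, SE 0.36). Both AT7519 values of CITED2 lay under both DMSO values. PRR15L (-2.65), CCDC9B (-2.48), FAM200C (-2.44), IGIP (-2.36), C21orf91 (-2.32) and ZCCHC24 (-2.25) also fell.

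**Figure D2:**
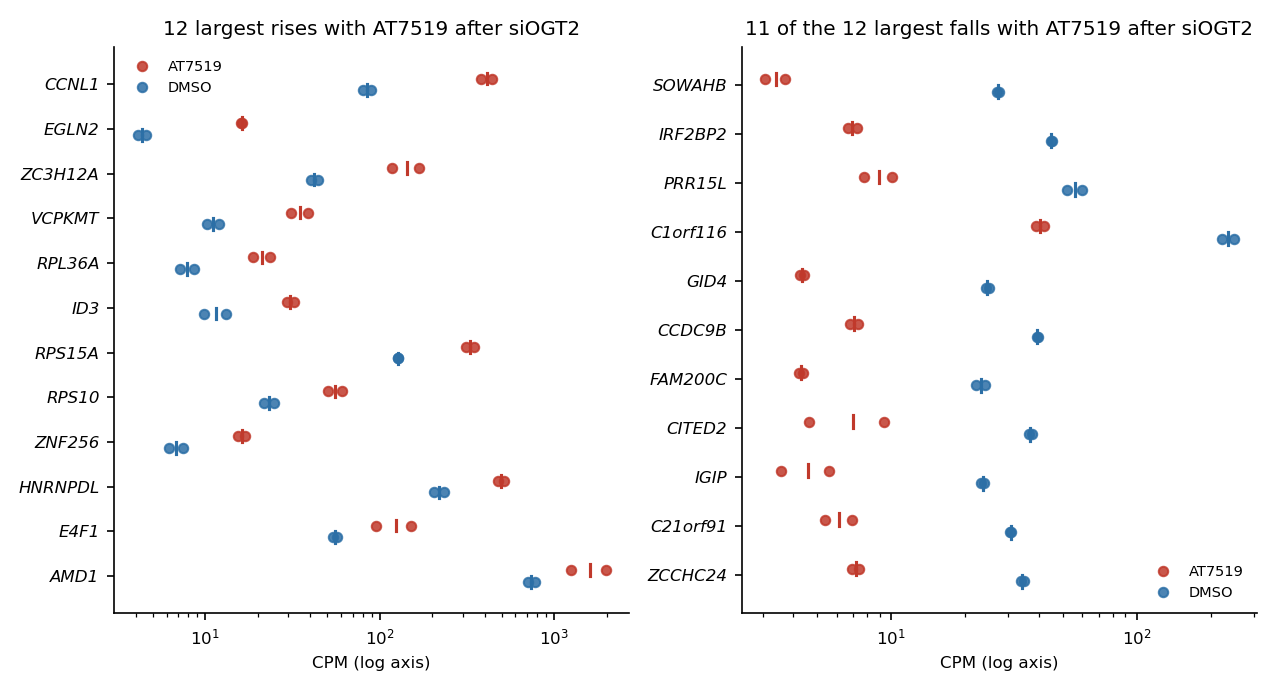
Points are CPM of single siOGT2 samples (n = 2 per group) on a log axis, AT7519 in red above DMSO in blue, with a tick at the mean. The 12 largest rises are on the left and 11 of the 12 largest falls on the right. Groups do not overlap for any of the 23 genes shown, which the rule required.

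Exon numbers of the 12 falls were low at the median and ran from 1 to 11. Their largest transcript models had a median of 3 exons, and 5 of the 12 had at most 2 exons. The 12 rises had a median of 6 exons and none had at most 2. Among 9462 protein-coding genes of similar count level the median was 10 exons, and 2.92% had at most 2. Gene spans ran from 2814 to 63303 bases for the falls (median 6431) and from 1877 to 20944 bases for the rises (median 8880.5), against a median of 34935.5 bases among those 9462 genes. These 24 genes were picked by their fold, so the figures describe them and test nothing.

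The same rule was applied to genes that overlap another tested gene in GENCODE v29, whose values are uncertain because reads of neighbours can be assigned to either. Whether counting used strand is not stated in the labels. EIF4A1, a translation factor gene that shares sequence with the readthrough locus SENP3-EIF4A1, had 70.3 and 136 CPM with AT7519 and 12.3 and 11.03 CPM with DMSO (3.14, SE 0.39). MATR3 (2.93), RBM4 (2.30) and RBM15 (2.27), all genes of RNA-binding proteins, had the same direction. On the other side were MEPCE (-3.06), PPP1R10 (-2.81), FOSL2 (-2.39) and TSC22D3 (-2.18). Of the 10729 called genes, 6026 overlap another tested gene, as do 12838 of the 23332 tested genes with a gene model. Among genes named further on, AFF1, CDK13, CLK1, PPP1CA, PPP1CB, RBFOX2, BCL2L1, BCL2L2, BCL2L11, XIAP, BRCA2, DNAJB1, HSPD1 and NDUFA13 do so, and their values are uncertain in the same way.

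The members of P-TEFb and of the complex that holds it inactive diverged. CDK9 (ENSG00000136807) stood at 83.9 and 84.2 CPM with AT7519, against 55.0 and 55.8 CPM with DMSO (log2 fold change 0.60, SE 0.08, adjusted p = 4.70e-06), and CCNT2 rose by 0.52. CCNT1, the main cyclin partner of CDK9, had 124 and 115 CPM with AT7519 and 107 and 114 CPM with DMSO (0.12, SE 0.11, adjusted p = 0.427). HEXIM1, the inhibitor of P-TEFb, had 27.3 and 23.9 CPM with AT7519 and 80.5 and 81.2 CPM with DMSO (-1.66, SE 0.10, adjusted p = 1.90e-10). Its DMSO samples were about 3 times as high as its AT7519 samples. HEXIM2 (-1.50) and MEPCE (-3.06) fell as well, with MEPCE at 14.7 and 11.8 CPM with AT7519 and 112 and 109 CPM with DMSO. LARP7 had a value of -0.20 and did not pass. HEXIM1, HEXIM2, MEPCE, CCNT2 and LARP7 each overlap another tested gene.

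In 4 lists of genes that act with polymerase II, falls outnumbered rises, but not in the list of pausing factors given after them. Over all tested genes 22.2% were called higher and 22.8% lower. Of 15 super elongation complex and BET reader genes, 2 were called higher and 6 lower, with 7 uncalled (median log2 fold change -0.14, against -0.03 over all tested genes). AFF1, a scaffold of the super elongation complex, fell by 1.16, with 58.0 and 68.6 CPM with AT7519 and 133 and 149.5 CPM with DMSO. Of 13 polymerase II phosphatase genes, 3 were called higher and 7 lower, with 3 uncalled (median -0.27). PPP1R10 encodes PNUTS, the subunit that directs protein phosphatase 1 to the polymerase, and it had 26.1 and 35.7 CPM with AT7519 and 216 and 216 CPM with DMSO (-2.81, SE 0.22). The catalytic subunit genes PPP1CA (0.42) and PPP1CB (0.44) rose. Of 21 cleavage and polyadenylation genes, 4 were called higher and 9 lower, with 8 uncalled (median -0.17), with RBBP6 at 34.4 and 28.5 CPM with AT7519 and 96.3 and 88.4 CPM with DMSO (-1.55). Of 14 Integrator genes, whose complex ends short transcripts, 3 were called higher and 7 lower, with 4 uncalled (median -0.22). INTS5, one of them, was at 8.84 and 8.93 CPM with AT7519 and 29.6 and 27.0 CPM with DMSO (-1.67). The few rises were fewer without single libraries: 1 super elongation complex or BET reader gene (without siOGT2 DMSO replicate 1, AT7519 replicate 1 or AT7519 replicate 2), 1 Integrator gene (without DMSO replicate 1, DMSO replicate 2 or AT7519 replicate 2) and 2 cleavage genes (without DMSO replicate 1, DMSO replicate 2 or AT7519 replicate 1).

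Pausing factors and kinases were mixed. Of 15 pausing and elongation genes, 7 were called higher, 3 lower and 5 neither, with a median of 0.18 that was -0.07 with library size only. The rises were 4 without siOGT2 DMSO replicate 2 or AT7519 replicate 2. NELFCD, a subunit of the negative elongation factor, rose by 0.67 (201 and 244 CPM with AT7519, 144 and 135 CPM with DMSO). POLR2A, the largest subunit of polymerase II, fell by 0.68 (71.1 and 85.3 CPM with AT7519, 129 and 122 CPM with DMSO). Of 13 transcription and cell cycle CDK genes, 6 were called higher, 2 lower and 5 neither, with a median of 0.22 that was -0.04 with library size only. CDK13 (-1.18) and CDK7 (-0.66) fell, and CDK1, the mitotic kinase gene, rose by 0.69 with 443 and 366 CPM with AT7519 and 241 and 261 CPM with DMSO.

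Splicing genes were mainly higher, beside 22.2% called higher over all tested genes and 72.2% over protein-coding genes above 7 log2 CPM. The core spliceosome (71.4%), SR protein (68.8%) and hnRNP and other regulator (70.7%) lists had shares near the latter. Of 49 core spliceosome genes tested, 35 were called higher (71.4%) and 3 lower, with 11 uncalled (median 0.39), with SNRPA1, a U2 particle protein gene, at 105 and 113 CPM with AT7519 and 64.4 and 63.8 CPM with DMSO (0.76). Of 16 SR protein genes, 11 were called higher and 0 lower, with 5 uncalled (median 0.37), with TRA2B at 291 and 342 CPM with AT7519 and 175 and 186 CPM with DMSO (0.81). Of 41 hnRNP and other splicing regulator genes, 29 were called higher and 2 lower, with 10 uncalled (median 0.51). The 2 that fell were MBNL2 (-1.27) and RBFOX2 (-0.79), both known for tissue-specific splicing. Beside CCNL1, 6 more of 13 cyclin L, CLK and SRPK kinase genes rose, 2 fell and 4 stayed uncalled (median 0.45). The rises were 4 in all without siOGT2 DMSO replicate 2 or AT7519 replicate 2, and the falls 1 without DMSO replicate 1, DMSO replicate 2 or AT7519 replicate 1. CLK1, which phosphorylates SR proteins, had 142 and 185 CPM with AT7519 and 75.4 and 59.1 CPM with DMSO (1.28, SE 0.17), and CCNL2, the relative of CCNL1, rose by 0.72. The call of CCNL2 was lost without siOGT2 DMSO replicate 2 (0.53, adjusted p = 0.103) or AT7519 replicate 2 (0.48, adjusted p = 0.113).

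Ribosomal protein, oxidative phosphorylation and proteasome genes rose in large shares. Over all tested genes 22.2% were called higher, and over protein-coding genes above 7 log2 CPM 72.2%. All 78 genes of the cytosolic ribosomal protein list rose, by 0.47 (RPL14) to 1.37 (RPS15A), with a median of 0.72. The list left out RPL36A, which rose by 1.42. Both AT7519 samples exceeded both DMSO samples for each of the 78, against 33.5% of all tested genes. The summed level of the 78 was 107589 to 127378 CPM with AT7519, against 72043 to 72265 CPM with DMSO. Of 50 nuclear oxidative phosphorylation genes 49 rose and 1, NDUFA13, did not pass (median 0.66), with COX6A1 at 101 and 87.5 CPM with AT7519 and 49.4 and 50.6 CPM with DMSO. Of 31 proteasome genes 28 rose and 3 did not pass (median 0.47), with PSMA7 at 329 and 290.0 CPM with AT7519 and 186 and 193 CPM with DMSO. These 3 medians stayed above 0 with library size only, at 0.45, 0.39 and 0.21. Ribosomal protein genes have many near-identical pseudogenes and 44 of the 78 overlap another tested gene, so single values among them are uncertain.

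Promoter sequences are shown for 4 genes that the results turn on: the genes with the largest rise and the largest fall, and 1 gene each of the ribosomal protein and immediate early groups. The ribosomal protein gene is the member of the ribosomal protein list with the largest rise whose window holds CCGGAA. The immediate early gene is the member of its list with the largest fall. Both were picked among called members that overlap no other tested gene, with a promoter entry and a mean of at least 3 log2 CPM. Each is the 250 bases before the RefSeq start of the gene on GRCh38.p14, on the strand of the gene. Capitals mark matches, on either strand, to the TATA box (TATAAA), the GC box of Sp factors (GGGCGG), the CREB and ATF site (TGACGTCA) and the ETS core (CCGGAA). The CCAAT box and the E-box CACGTG were also searched on both strands and had no match in these 4 windows.
CCNL1, chr3:157160148-157160397, minus strand: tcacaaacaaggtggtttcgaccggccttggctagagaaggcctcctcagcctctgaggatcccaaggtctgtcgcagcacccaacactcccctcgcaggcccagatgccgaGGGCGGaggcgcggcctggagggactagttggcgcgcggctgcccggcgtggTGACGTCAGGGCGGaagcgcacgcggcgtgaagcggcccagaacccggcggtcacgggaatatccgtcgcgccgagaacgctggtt
SOWAHB, chr4:76898145-76898394, minus strand: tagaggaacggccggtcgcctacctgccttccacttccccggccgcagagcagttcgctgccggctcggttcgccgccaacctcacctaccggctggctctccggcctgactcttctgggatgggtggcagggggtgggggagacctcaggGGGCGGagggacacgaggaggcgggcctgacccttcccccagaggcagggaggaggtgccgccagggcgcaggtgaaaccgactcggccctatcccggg
RPS10, chr6:34426070-34426319, minus strand: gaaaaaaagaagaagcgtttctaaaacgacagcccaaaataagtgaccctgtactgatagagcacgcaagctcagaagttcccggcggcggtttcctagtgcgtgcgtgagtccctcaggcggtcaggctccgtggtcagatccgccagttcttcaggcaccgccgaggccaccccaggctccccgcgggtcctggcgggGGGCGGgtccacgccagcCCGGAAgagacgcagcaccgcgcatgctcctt
IER2, chr19:13150161-13150410, plus strand: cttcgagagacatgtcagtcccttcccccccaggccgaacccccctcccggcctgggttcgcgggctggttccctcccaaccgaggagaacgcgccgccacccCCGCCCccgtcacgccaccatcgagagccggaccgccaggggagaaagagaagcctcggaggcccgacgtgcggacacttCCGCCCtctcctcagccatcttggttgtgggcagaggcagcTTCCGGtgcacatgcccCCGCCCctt

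CCNL1 had 1 match to TGACGTCA, the site bound by CREB and ATF proteins, and 2 to GGGCGG, the GC box bound by Sp factors. SOWAHB had 1 GGGCGG. The shares that follow were counted in longer windows of 300 bases, from 250 before to 50 after the start. The CCGGAA core that ETS factors bind occurred in 54.8% of the 62 promoters found for the ribosomal protein list. It was in 50% of 40 oxidative phosphorylation promoters. It occurred in 26.9% of the 13224 promoters of tested genes and in 17.6% of all 27305 in the table. TATAAA was in 24.0% of 25 immediate early promoters and in 6.75% of those of tested genes, and GGGCGG in 76.0% and 65.6%. Of the 12 rises 11 had an entry and 10 held GGGCGG, and of the 12 falls 9 had an entry and 6 held it. Motifs were counted separately, so adjoining or overlapping matches each count. A match is a description of these letters in the window searched.

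Immediate early genes, which respond within minutes to growth signals and have unstable transcripts, were mainly lower. Of 33 tested, 22 fell (66.7%), 6 rose (18.2%) and 5 did not pass (median -1.09), beside 22.8% lower and 22.2% higher over all tested genes. IER2 had 6.65 and 6.14 CPM with AT7519 and 25.4 and 21.2 CPM with DMSO (-1.87, SE 0.16), and ATF3, a stress-induced bZIP factor gene, 13.03 and 12.6 CPM with AT7519 and 40.6 and 37.3 CPM with DMSO (-1.61, SE 0.11). BTG2, an antiproliferative gene, fell by 1.30. JUND rose, with 122 and 96.1 CPM with AT7519 and 59.6 and 47.3 CPM with DMSO (1.03, SE 0.19), as did KLF10 (0.67) and DUSP1 (0.49). EGR1 had no count in the AT7519 samples and at most 0.272 CPM with DMSO, and moving it to its bound left the median at -1.09. MYC (ENSG00000136997) stood at 118 and 105 CPM with AT7519 and 131 and 138 CPM with DMSO (-0.27, SE 0.08, adjusted p = 0.00919). Its call was lost with upper-quartile scaling (-0.16, adjusted p = 0.0892), without siOGT2 DMSO replicate 2 (-0.24, adjusted p = 0.0783) and without AT7519 replicate 2 (-0.18, adjusted p = 0.132).

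Cell death genes fell more often than they rose, beside 22.8% lower and 22.2% higher over all tested genes. Of 11 death-promoting BCL2 family genes, 6 fell, 2 rose and 3 did not pass (median -0.69). The rises were 1 without siOGT2 DMSO replicate 1 or AT7519 replicate 1 and 0 without DMSO replicate 2. BCL2L11, which encodes BIM, had 13.5 and 10.3 CPM with AT7519 and 39.4 and 45.2 CPM with DMSO (-1.83), and PMAIP1, which encodes NOXA, 8.87 and 6.03 CPM with AT7519 and 20.4 and 22.8 CPM with DMSO (-1.53). BMF (-1.66) and BIK (-1.73) fell as well. Of 4 survival genes, BCL2 (-0.72), BCL2L2 (-0.47) and BCL2L1 (-0.31) fell, of which 1 still passed without AT7519 replicate 2. MCL1, a survival gene with a short-lived protein, had 433 and 365 CPM with AT7519 and 312 and 306 CPM with DMSO (0.37, SE 0.10, adjusted p = 0.00433), and it overlaps ADAMTSL4-AS1. The MCL1 call was lost with library size only (0.10, adjusted p = 0.328) and without AT7519 replicate 1 (0.24, adjusted p = 0.0822), and that of BCL2L1 when siOGT2 DMSO replicate 1, DMSO replicate 2 or AT7519 replicate 2 was left out (-0.32, -0.29 and -0.19, adjusted p 0.0816 to 0.263) and with upper-quartile scaling (-0.20, adjusted p = 0.108). Of 15 caspase and caspase inhibitor genes, 8 fell, 2 rose and 5 did not pass (median -0.56), with XIAP at 103 and 85.1 CPM with AT7519 and 156 and 181 CPM with DMSO (-0.84).

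DNA repair was a further group with more falls than rises. Of 34 homologous recombination and checkpoint genes, 18 fell (52.9%), 7 rose (20.6%) and 9 did not pass (median -0.29). Over all tested genes 22.8% fell and 22.2% rose, and over protein-coding genes of 3 to 5 log2 CPM 41.7% fell and 15.02% rose. XRCC2, a homologous recombination gene, had 13.9 and 14.4 CPM with AT7519 and 35.3 and 31.5 CPM with DMSO (-1.24), and BARD1, the partner of BRCA1, 97.1 and 99.3 CPM with AT7519 and 171 and 191 CPM with DMSO (-0.88). FANCM (-1.18), BRIP1 (-1.41) and BRCA2 (-0.90) also fell. Of 491 ZNF zinc finger genes, 250 fell (50.9%), 53 rose (10.8%) and 188 did not pass. Their median was -0.47, or -0.46 with ZNF556 and ZNF114, which had a group at 0, at their bounds. ZNF607 had 3.59 and 4.36 CPM with AT7519 and 16.7 and 17.5 CPM with DMSO (-2.10), and ZNF623 12.95 and 13.2 CPM with AT7519 and 47.3 and 47.7 CPM with DMSO (-1.86).

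Cell cycle, p53 and stress lists held changes of both signs, as did all tested genes (22.2% higher and 22.8% lower). The shares of p53 targets, 28.6% each way, lay near those values. Of 33 G1/S and replication genes, 12 were called higher (36.4%) and 7 lower (21.2%), with 14 uncalled. Of 30 G2/M genes, 9 were called higher (30.0%) and 5 lower (16.7%), with 16 uncalled. The medians of the G1/S and G2/M lists, 0.15 and 0.06, became -0.11 and -0.21 with library size only. The G1/S rises were 7 without siOGT2 AT7519 replicate 1 and 5 without DMSO replicate 2, and the G2/M rises were 4 without the one or the other. AURKA, a mitotic kinase gene, fell to 30.3 and 25.1 CPM with AT7519, against 61.8 and 59.8 CPM with DMSO (-1.13). Of 28 p53 targets 8 were called higher, 8 lower and 12 neither, with a median of -0.05 that was 0.06 with upper-quartile scaling, and the rises were 5 without DMSO replicate 1 or 2 and 4 without AT7519 replicate 1. Of 30 ATF4 and unfolded protein response genes, 15 were called higher, 10 lower and 5 neither, with a median of 0.23 that was -0.04 with library size only, and the falls were 6 without AT7519 replicate 2. CHAC1, an ATF4 target, had 2.78 and 2.37 CPM with AT7519 and 16.2 and 13.004 CPM with DMSO (-2.50), and the chaperone gene HYOU1 rose by 0.64. Of 25 heat shock and chaperonin genes, 16 were called higher and 6 lower, with 3 uncalled (median 0.47), with DNAJB1 (-1.75) and HSPA1B (-0.58), both inducible, among the falls and HSPD1 (0.69), a mitochondrial chaperonin, among the rises. HSPA1B has a near-identical copy, HSPA1A, so its value is uncertain.

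Androgen-regulated genes were mixed as well. KLK3, the gene of prostate-specific antigen, had 780.0 and 727 CPM with AT7519 and 785 and 801 CPM with DMSO (-0.07, SE 0.11, adjusted p = 0.618), and it passed as a fall with library size only (-0.34, adjusted p = 0.0137). Of 34 androgen-regulated genes, 6 were called higher (17.6%) and 9 lower (26.5%), with 19 uncalled (median -0.12), shares near the 22.2% and 22.8% over all tested genes. ADAMTS1, a secreted protease gene, was at 960 and 943 CPM with AT7519 and 449 and 452 CPM with DMSO (1.08). Of 10 hexosamine pathway and O-GlcNAc cycling genes 3 rose and none fell, with a median of 0.21 that was -0.06 with library size only. Without siOGT2 DMSO replicate 2 only 1 rose. The calls of NAGK (0.25) and GNPDA2 (0.29) were lost without DMSO replicate 1 or 2 and under several other settings, and both overlap another tested gene. GFPT1, the rate-limiting enzyme of that pathway, had 251 and 248 CPM with AT7519 and 164 and 181 CPM with DMSO (0.54).

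**Figure D3:**
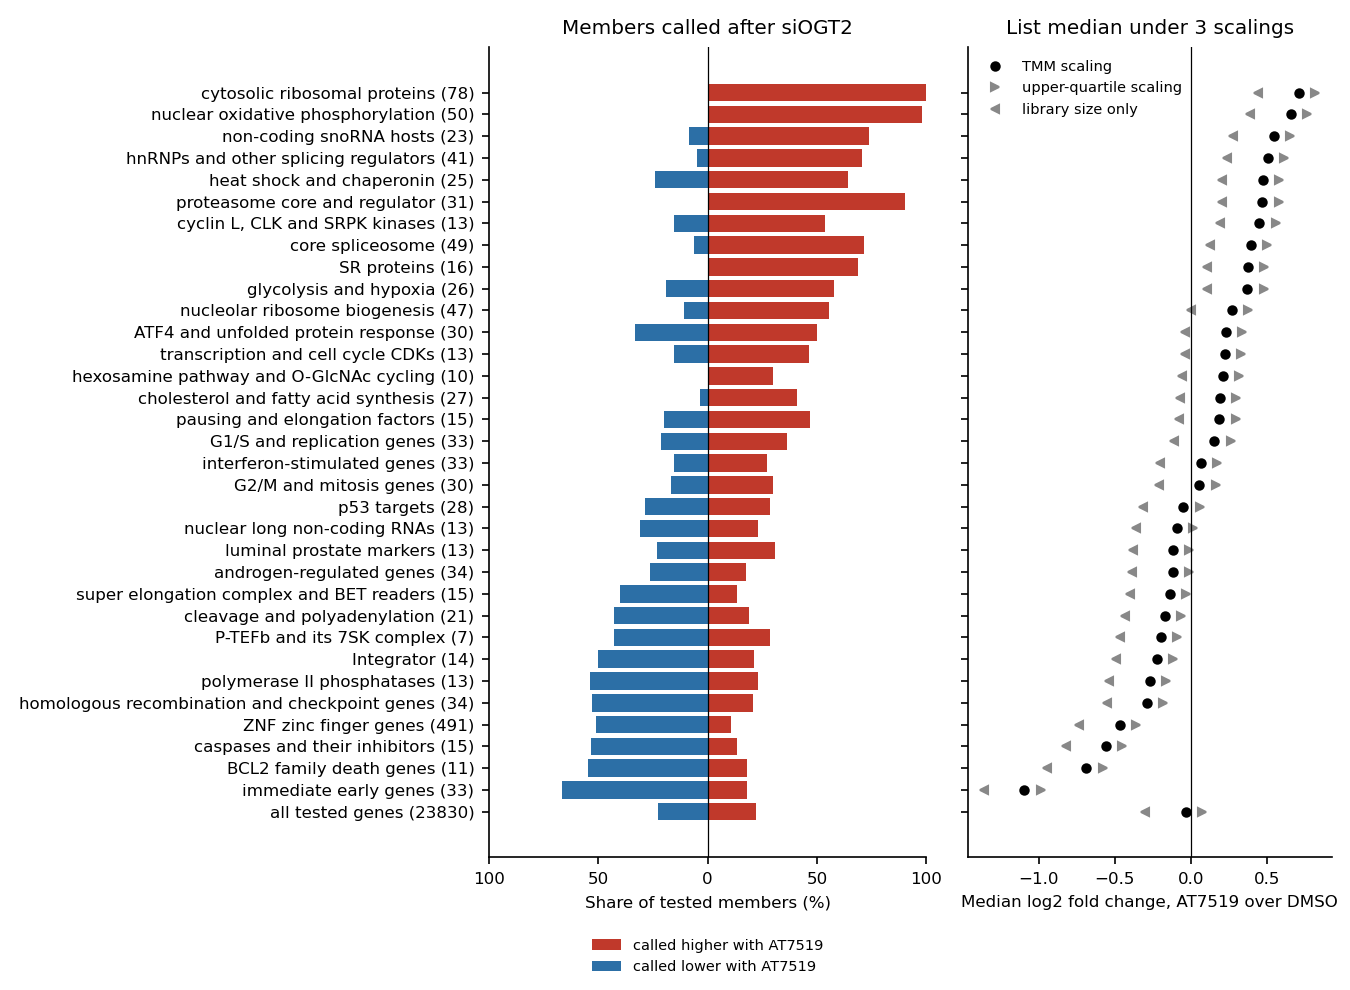
Left, the share (%) of tested members of each list called higher (red) or lower (blue) with AT7519 in siOGT2 cells, with the number tested in brackets; right, the median log2 fold change of each list under 3 scalings. Ribosomal protein genes are at the top (78 of 78 higher) and immediate early genes near the bottom (22 of 33 lower), above the bar for all tested genes (22.2% higher, 22.8% lower).

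Calls varied with gene structure and level across the 14576 protein-coding genes, of which 24.4% rose and 27.6% fell. Of genes with a single exon, 12.8% rose and 38.7% fell (297 genes, median -0.45), and of those with 2 exons 11.7% rose and 40.1% fell (486 genes, median -0.50). Genes with 6 to 10 exons had 29.04% higher and 25.2% lower (4522 genes). Spans over 100 kb had 15.7% higher and 33.7% lower, and spans of 5 to 10 kb 31.3% higher and 23.7% lower. By count level, which is not scaled by gene length, 72.2% of the 1679 genes over 7 log2 CPM rose and 7.39% fell. Between 3 and 5 log2 CPM 15.02% rose and 41.7% fell (3421 genes). Among well-counted genes of at least 3 log2 CPM, spans up to 5 kb had a median of 0.36 and spans over 100 kb a median of -0.11, which were 0.09 and -0.38 with library size only. Genes are not independent replicates, and these 3 properties were not separated from one another.

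**Figure D4:**
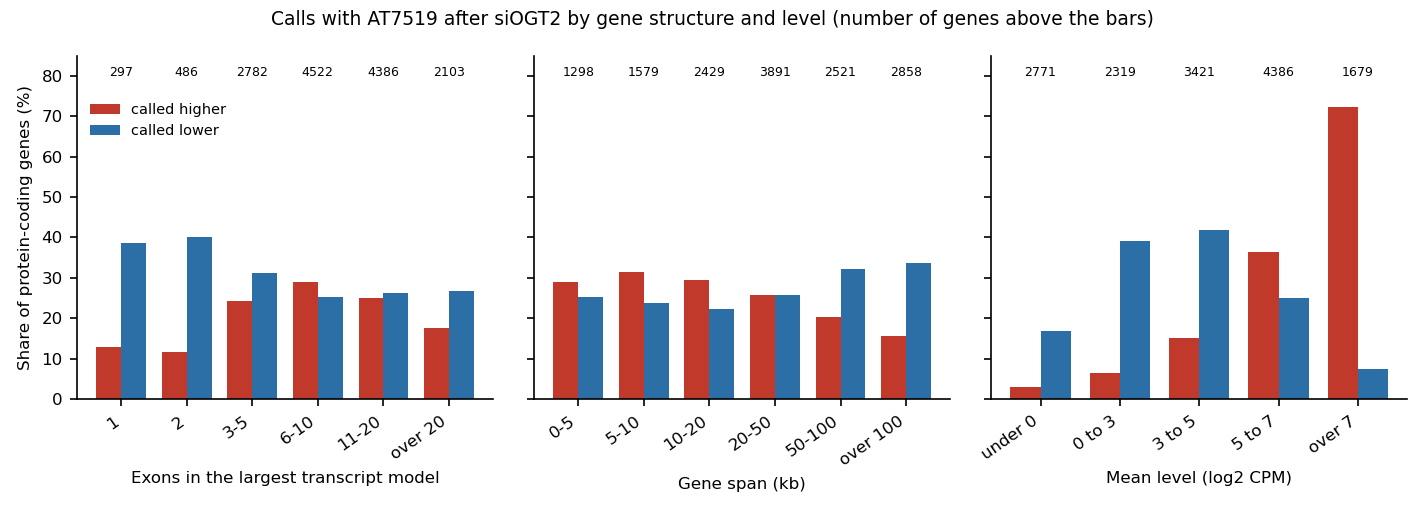
Bars give the share (%) of protein-coding genes called higher (red) or lower (blue) with AT7519 in siOGT2 cells, by exons in the largest transcript model, gene span and mean level over the 16 samples, with the number of genes above each pair. Genes with 1 or 2 exons are more often lower, and 72.2% of genes over 7 log2 CPM are higher.

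The AT7519 response in siOGT2 cells was next set against that in Scr cells and in siOGT1 cells by testing the difference itself. Against Scr, 0 genes differed at an adjusted p under 0.05 in edgeR, 928 did so at an unadjusted p under 0.05, DESeq2 called 3 and limma voom 0. The median SE of a difference was 0.15 over 10028 well-counted genes, with 2 samples per group. Some differences of about 1 log2 unit passed against siOGT1, as given below, and none passed against Scr. A fit with the replicate number as a block within each agent left out the OSMI2 samples. It called 271 genes higher and 90 lower against Scr, with a median SE of 0.0849, but the labels do not say that the numbers pair samples. The log2 fold changes in siOGT2 and in Scr cells were 2.27 and 2.19 for CCNL1, -1.66 and -1.61 for HEXIM1 and 0.60 and 0.73 for CDK9. The interval of the difference was -0.36 to 0.11 for CDK9 and -0.33 to 0.23 for HEXIM1 (95%, siOGT2 minus Scr).

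Other genes had intervals away from 0 without passing the adjusted test. SOWAHB had -3.01 in siOGT2 and -3.71 in Scr cells (interval of the difference 0.15 to 1.26, adjusted p = 0.9999). For MYC the interval was -0.58 to -0.11 (adjusted p = 0.9999). The following 4 genes were among those picked by the block fit for their difference. CTSL, the gene of the lysosomal protease cathepsin L, was at 41.5 and 26.9 CPM with AT7519 and 59.5 and 49.3 CPM with DMSO after siOGT2, and at 173 and 154 CPM with AT7519 and 134 and 130.4 CPM with DMSO in Scr cells. Its log2 fold changes were -0.67 and 0.31, a difference of -0.98 (SE 0.22, adjusted p = 0.9999). PUDP, a phosphatase gene, had 15.7 and 17.1 CPM with AT7519 and 20.1 and 20.4 CPM with DMSO after siOGT2, and 7.83 and 6.40 CPM with AT7519 and 16.4 and 16.4 CPM with DMSO in Scr cells. Its log2 fold changes were -0.30 and -1.21, a difference of 0.90 (SE 0.17, adjusted p = 0.620). DESeq2 called both differences, with an adjusted p of 0.0223 for CTSL and 0.00469 for PUDP. NEAT1, a nuclear non-coding RNA, had log2 fold changes of -0.95 and -0.13 (interval of the difference -1.26 to -0.38), and PPP1R10 -2.81 and -3.56 (0.11 to 1.40), each with an adjusted p of 0.9999.

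Against siOGT1, 3 genes differed (0.0126% of those tested), and 1040 at an unadjusted p under 0.05. DESeq2 called 17 and limma voom 3. GCH1, the first enzyme of tetrahydrobiopterin synthesis, was at 29.4 and 27.5 CPM with AT7519 and 28.0 and 28.9 CPM with DMSO after siOGT2 (log2 fold change -0.0011, SE 0.10). After siOGT1 it was at 6.59 and 5.85 CPM with AT7519 and 14.3 and 13.4 CPM with DMSO (-1.16, SE 0.11), a difference of 1.16 (SE 0.15, adjusted p = 0.00535). GCH1 thus fell with AT7519 after siOGT1 (adjusted p = 8.75e-08), and both DMSO samples there lay below the siOGT2 samples. After siOGT2 it passed as a fall with library size only (-0.27, adjusted p = 0.0257). SLC26A2, a sulfate transporter gene that overlaps TIGD6, was at 55.4 and 48.3 CPM with AT7519 and 60.7 and 63.8 CPM with DMSO after siOGT2 (-0.26). In siOGT1 cells it was at 11.1 and 9.31 CPM with AT7519 and 28.6 and 26.7 CPM with DMSO (-1.45), a difference of 1.18 (SE 0.16, adjusted p = 0.00659).

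GDPD1, a phosphodiesterase gene, differed the other way. It was at 5.52 and 5.60 CPM with AT7519 and 22.9 and 23.9 CPM with DMSO after siOGT2 (-2.07, SE 0.11). After siOGT1 it was at 13.3 and 14.4 CPM with AT7519 and 27.2 and 29.1 CPM with DMSO (-1.02, SE 0.10), a difference of -1.05 (SE 0.15, adjusted p = 0.00791). In Scr cells the AT7519 responses of GCH1 (-0.03), SLC26A2 (-0.44) and GDPD1 (-2.36) were nearer to those of siOGT2 cells, and their differences from siOGT2 did not pass (adjusted p = 0.9999 each). None of the 3 passed without siOGT2 DMSO replicate 1, siOGT1 DMSO replicate 1 or siOGT1 AT7519 replicate 2 (adjusted p 0.0528 to 0.166), and GDPD1 also did not pass without siOGT2 DMSO replicate 2 (adjusted p = 0.0947). The differences themselves kept their size when 1 library was left out, at 1.04 to 1.31 for SLC26A2, 1.05 to 1.24 for GCH1 and -1.11 to -0.999 for GDPD1.

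**Figure D5:**
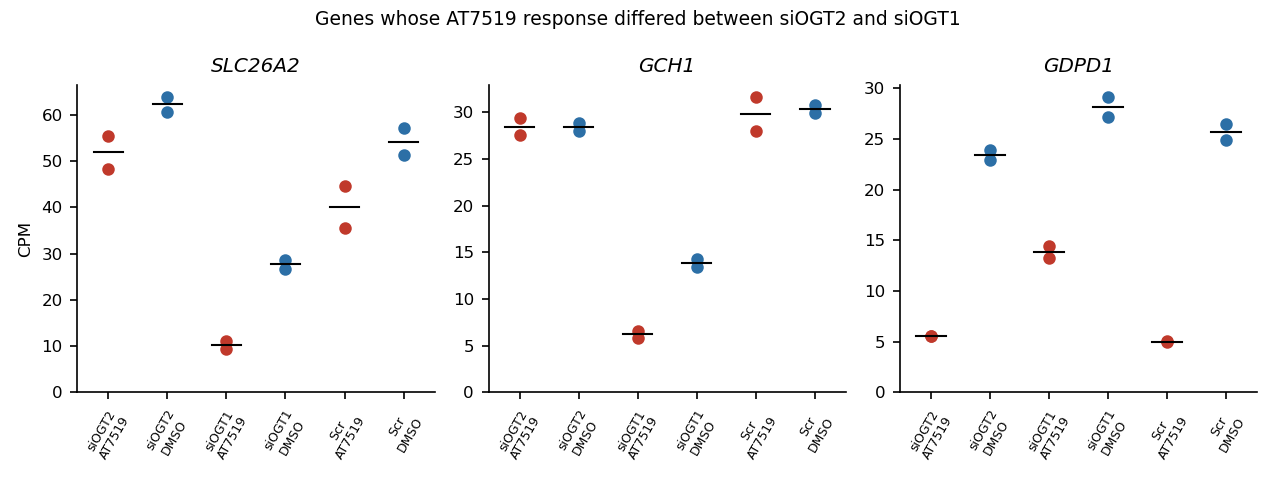
CPM of SLC26A2, GCH1 and GDPD1 in each sample (n = 2 per group, bar at the mean), AT7519 in red and DMSO in blue, in siOGT2, siOGT1 and Scr cells. In siOGT1 cells SLC26A2 and GCH1 are lower with AT7519 than in siOGT2 cells, and GDPD1 is higher.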

How the data were processed

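RNA of 16 LNCaP samples was sequenced, with 2 replicates for each of 4 conditions (siOGT2, siOGT1, Scr, OSMI2) under AT7519 and under DMSO. The authors deposited read counts per Ensembl gene, and a table of normalized signal that equals these counts divided by a size factor per sample (largest relative deviation 5.52e-10). STAR, HTSeq, DESeq2 and the builds hg19 and GRCh37 are named in the submitters' processing notes. Neither their versions nor the strand setting is stated there.

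The deposited counts were filtered with filterByExpr, scaled by TMM and fitted with edgeR 4.0.16 (quasi-likelihood, robust) in R 4.3.3 over all 16 samples, with 8 residual degrees of freedom and Benjamini-Hochberg adjustment over 23830 genes at 0.05. The steps were tested on simulated counts with few changed genes, balanced in direction. That test does not cover scaling where many genes change. Alternatives used DESeq2 1.42.0, limma 3.58.1, other scalings and filters, a replicate block and each library left out. Total counts of 48354151 to 72461676 per siOGT2 sample set the counting precision, and the number of samples sets the rest. Exon numbers, spans and overlaps came from GENCODE v29, and promoters from RefSeq on GRCh38.p14, without coordinates of the counted build.

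The genes named are OGT, OGA, CDK9, CCNT1, HEXIM1, MYC, MCL1 and KLK3; 12 rises and 12 falls of greatest size among called protein-coding genes with a mean of at least 3 log2 CPM, groups that do not overlap and no overlapping tested gene; the 4 largest each way among those that overlap one; up to 5 each way for each difference of responses; and up to 4 called members per list. Some genes that these rules name are not reported here. Other list members in the text were chosen after their values were seen. The samples, lists and rules were chosen with earlier results of these data known.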

Additional observations from a re-analysis of the deposited data

Results flagged for a closer look

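The AT7519 response differed between siOGT2 and siOGT1 cells, by a test of the difference itself, for 3 genes. The log2 fold change in siOGT2 cells minus that in siOGT1 cells was 1.18 for SLC26A2 (95% interval 0.84 to 1.53), 1.16 for GCH1 (0.84 to 1.47) and -1.05 for GDPD1 (-1.37 to -0.73). SLC26A2 overlaps TIGD6. With only the compared samples in the fit, edgeR's adjusted p was 0.0711 for SLC26A2, 0.0711 for GCH1 and 0.127 for GDPD1, with differences of 1.18, 1.16 and -1.05.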

How the results depend on the processing

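With library size only, 2842 genes were called higher and 8067 lower. At a mean of at least 3 log2 CPM the counts were 3071 higher and 3320 lower, with fewer genes tested, and at 2-fold or more 1493 and 2566. Leaving out 1 library gave 3995 to 4553 higher and 4320 to 4714 lower. The log2 fold change of NAGK, 0.25, was -0.017 with library size only. For the difference from Scr, DESeq2 called 2 higher and 1 lower, no low-count filter 4 and 4, and leaving out 1 library 0 to 0 higher and 0 to 2 lower. For the difference from siOGT1, DESeq2 called 10 higher and 7 lower, no low-count filter 14 and 7, the compared samples alone 0 and 0, and leaving out 1 library 0 to 3 higher and 0 to 4 lower. The cause was not tested. The OGT check kept its direction and call in every alternative run, at -2.90 to -3.18 under DMSO and -3.08 to -3.29 with AT7519 when 1 library was left out.

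The labels do not say that a replicate number marks a shared batch. Over 10028 genes, deviations of same-numbered siOGT2 and Scr samples correlated at 0.71 with AT7519 and 0.64 under DMSO, and those of siOGT2 samples with AT7519 and under DMSO at -0.13. Those of same-numbered siOGT2 and OSMI2 samples correlated at 0.18 with AT7519 and 0.06 under DMSO. A replicate block gave 5511 higher and 5693 lower in siOGT2 cells, and 2 lower for the difference from siOGT1. The crossed pairing, chosen after seeing the data, gave 5511 and 5649. A replicate block within each agent, fitted without the OSMI2 samples, gave 6571 and 6610. It called 271 higher and 90 lower for the difference from Scr, and 422 and 203 for that from siOGT1.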

Other observations

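Classes of RNA other than mRNA also differed. Of 193 snoRNA and scaRNA genes tested, which guide modification of other RNAs, 107 (55.4%) were higher with AT7519 after siOGT2 and 0 lower. Their median log2 fold change was 1.88, against -0.03 over all tested genes. Of 147 snRNA genes, 51 were higher (34.7%) and 11 lower (7.48%). Many lie inside other genes, whose reads can be counted for them. Of 4836 long non-coding RNA genes, 629 were higher and 973 lower (median -0.24).

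Of 23 non-coding snoRNA host genes, 17 were called higher and 2 lower, or 1 lower without siOGT2 DMSO replicate 2 (median 0.55). SNHG1 stood at 306 and 383 CPM with AT7519, against 94.97 and 86.8 CPM with DMSO (1.92), and SNHG15 at 142 and 168 CPM with AT7519, against 48.5 and 46.4 CPM with DMSO (1.71). NEAT1, the scaffold RNA of paraspeckles, fell to 876 and 952 CPM with AT7519, against 1907 and 1630.4 CPM with DMSO (-0.95). MALAT1 had 1166 and 4004 CPM with AT7519 and 2048 and 1820.1 CPM with DMSO, so that its AT7519 samples lay on either side of both DMSO samples.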
